A study of Danio rerio with 30 samples.

Results

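Larvae exposed to ethylparaben (EtP) were compared with larvae exposed to methylparaben (MtP) at the dose label BMD5, with 3 RNA-seq libraries a side, 6 of the 30 libraries in the series. The libraries are all those with these 2 treatment labels, while the comparison and the gene lists described here were chosen with earlier results of these data known. The counts over lists are therefore descriptions, and no control library takes part in the contrast. Both groups were whole larvae of the wild-type AB strain at 120 hours post fertilization (hpf), and total RNA had been extracted with RNAzol. The other 8 groups, of 3 libraries each, were untreated controls, the same compounds at labels BMD5/10 and BMD5/50, and propylparaben at all labels. No concentration was given in the sources used here for any label, so the 1 pair of compounds was compared at the same label, which need not be the same concentration. The labels do not say whether replicates came from separate clutches, so p-values measure the spread between these libraries alone, and that spread may be technical.

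Parabens are preservatives, esters of p-hydroxybenzoic acid, and EtP carries an ethyl group where MtP carries a methyl group. Esterases of the liver and other tissues split such esters, and their phenol group is conjugated with sulfate or glucuronic acid. By this larval stage the zebrafish liver makes most of the proteins of the blood plasma, among them lipid carriers, complement and clotting factors, while the gut and pancreas have begun digestion and the retina and nervous system respond to light and touch. The title of the series asks how the parabens differ in developmental neurotoxicity, so nervous system genes are given beside those of the other tissues.

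The labels number the libraries 1 to 3 in each group, and those numbered 1 stood apart from the others. On the first principal component, which held 40.8% of the variance over all libraries, the EtP libraries numbered 1, 2 and 3 lay at -36.2, 47.0 and 48.4 and the MtP libraries at -75.3, -4.14 and 14.3. Total counts over the 6 libraries ran from 9711814 to 16809514. Transcripts annotated as retained introns took 1.09, 0.852 and 0.895% of the reads with EtP and 1.23, 0.989 and 0.928% with MtP, the highest share in each group being that of library 1. All 10 tissue markers, from the neuronal elavl3 to the red cell globin hbae3, had reads in each of the 6 libraries. Levels are given as CPM (TMM-scaled counts relative to library size), and values by library are given in the order 1, 2, 3. A gene that rose is one that was higher with EtP than with MtP, which need not be a change from Control. What sets the libraries numbered 1 apart was not tested.

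With all libraries, no gene passed the test between the compounds. In edgeR's quasi-likelihood test 0 of 18543 genes had a Benjamini-Hochberg adjusted p under 0.05 (0%), with a smallest adjusted p of 0.920, and DESeq2 also called 0. At an unadjusted p under 0.05 there were 709 genes (3.82%) with edgeR and 798 with DESeq2. With the library number as a block in edgeR, 0 genes passed as well. The smallest adjusted p was then 0.0762, and 2670 genes had an unadjusted p under 0.05. Half-widths of the 95% intervals of log2 fold changes had a median of 0.53, and the interval of 63.7% of the genes stayed within 1 log2 unit of 0. A fit without the libraries numbered 1 was added because these stood apart in earlier results of these data. Its p-values do not allow for that choice. In the libraries numbered 2 and 3, with 2 libraries a side, 63 of 18855 genes passed (0.334%), 61 higher with EtP (0.324%) and 2 lower (0.0106%). The count depends on the setting: DESeq2 called 250 there (62 of the 63 among them), edgeR without a filter on low counts 333, edgeR on the 2 groups alone 216 (53 of the 63) and edgeR with a replicate block 132. With 1 library left out, its group keeps 1 library, which is assumed to vary like the other groups, and the test has less power. With EtP library 3 left out 3 of the 63 genes still passed, and with EtP library 2, MtP library 2 or MtP library 3 left out 0 did (edgeR; 2392, 1492 and 2725 genes at an unadjusted p under 0.05). Over these 4 settings the log2 fold change ran from 2.60 to 3.27 for gc and from 2.29 to 2.515 for c9, both genes of the liver, against 2.94 and 2.39 with no library left out.

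Genes made in the liver were the most numerous group among those that rose with EtP. Of the 61 higher genes, 21 belong to the 2 liver lists, which hold 64 of the 18543 tested genes. Over all libraries the liver carriers and apolipoproteins lay above MtP in 24 of 24 tested genes with a median log2 fold change of 1.76, and the complement, coagulation and protease inhibitor genes in 40 of 40 with a median of 1.91, against 9699 of 18543 genes and a median of 0.01 overall. By library number the medians of the first list were 0.53, 2.08 and 1.63 and those of the second 0.71, 2.13 and 1.83, so the gap was smallest between the libraries numbered 1. In bulk RNA of whole larvae, more liver cells and more RNA of these genes per cell cannot be told apart.

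**Figure D1:**
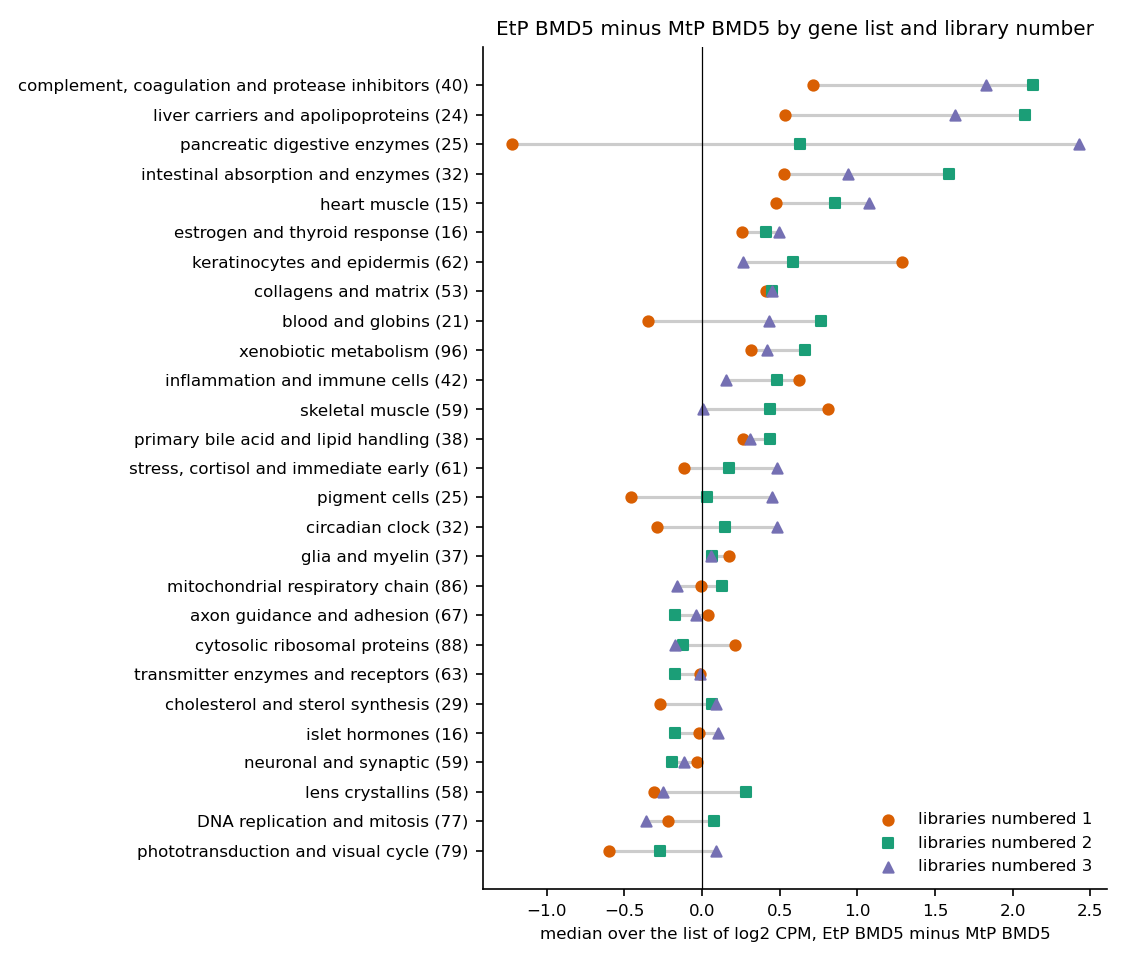
Median over each gene list of the difference in log2 CPM between EtP and MtP at BMD5 (x axis), with 1 point for the libraries of each number and the tested members in brackets. The 2 liver lists lie at the top, with medians from 0.53 to 2.13, and the pancreatic list runs from -1.23 to 2.42.

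Among the carriers, gc, the vitamin D binding protein, stood at 2.63, 55.0 and 36.1 CPM in the EtP libraries and at 1.48, 4.66 and 6.94 CPM in the MtP libraries. The means were 31.2 ± 26.5 and 4.36 ± 2.74 CPM (SD, n = 3), and the groups overlapped, as EtP library 1 lay below MtP libraries 2 and 3. In libraries 2 and 3 gc rose by 2.94 ± 0.41 (log2, SE; adjusted p = 0.0180, edgeR), and over all libraries its log2 fold change was 2.85 ± 1.25 (adjusted p = 0.920). The liver fatty acid binding protein gene fabp10a, the marker of this tissue, had 46.9, 368 and 307 CPM with EtP and 23.9, 82.8 and 105 CPM with MtP. It rose by 1.82 ± 0.30 in libraries 2 and 3 (adjusted p = 0.0228, edgeR). The level of apoa1b, the main protein of high density lipoprotein, was 159, 1615 and 1168 CPM with EtP and 103, 287 and 306 CPM with MtP, and it rose by 2.21 ± 0.41 (adjusted p = 0.0381, edgeR). For all of these genes EtP libraries 2 and 3 lay above every MtP library, and EtP library 1 lay above MtP library 1 but below the other MtP libraries. Other carriers that rose in libraries 2 and 3 were apoa2 (2.40 ± 0.44), transferrin, tfa (2.54 ± 0.49), transthyretin, ttr (2.53 ± 0.42), haptoglobin, hp (1.88 ± 0.35), ambp (1.99 ± 0.33), itih2 (2.54 ± 0.41) and rbp2b (2.08 ± 0.42), which makes 10 of the 24 (all genes: 0.324% called higher). In none of the 24 (0) did all 3 EtP libraries lie above all 3 MtP libraries, which held for 688 of all genes (3.71%).

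Complement and clotting genes rose in the same libraries, 11 of the 40 tested (all genes: 0.324% called higher). Complement component c9, which forms the pore of the membrane attack complex, had 3.94, 46.05 and 40.7 CPM with EtP and 1.855, 7.49 and 8.78 CPM with MtP, a rise of 2.39 ± 0.34 in libraries 2 and 3 (adjusted p = 0.0180, edgeR). The prothrombin gene f2 had 2.065, 33.2 and 28.8 CPM with EtP and 1.48, 5.16 and 5.28 CPM with MtP and rose by 2.55 ± 0.42 (adjusted p = 0.0228, edgeR). In both, EtP library 1 again lay between MtP library 1 and the other MtP libraries. Plasminogen, plg (2.67 ± 0.44), which dissolves clots, rose, as did both copies of antiplasmin, which holds plasmin back, serpinf2a (2.20 ± 0.39) and serpinf2b (2.41 ± 0.44). Also higher were fibrinogen gamma, fgg (2.36 ± 0.45), the anticoagulant proca (1.86 ± 0.33), the antitrypsin-like serpina1l (2.54 ± 0.50), and the complement genes c3a.1 (2.31 ± 0.47), c3a.3 (2.19 ± 0.36) and c8a (2.15 ± 0.36). The copies of c3a and other tandem duplicates share sequence, so counts may be split between them. Complement factor H, cfh, a brake on complement, had 3.13 ± 0.70 in libraries 2 and 3 without passing (adjusted p = 0.0721, edgeR).

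Of the 61 higher genes, 28 are in any of the lists (all genes tested: 1293 of 18543), and several of the rest encode enzymes and secreted proteins of the liver. They include tyrosine aminotransferase, tat (1.58 ± 0.23), which breaks down tyrosine, and urate oxidase, uox (2.19 ± 0.41). Another is urad (3.28 ± 0.67), which acts after uox in the breakdown of urate. The value for urad rests on few reads, 53 over the 6 libraries. Its levels were 0.3754, 1.356 and 1.68 CPM with EtP and 0.1855, 0.2496 and 0.06362 CPM with MtP. The size of its rise is therefore uncertain. The glyoxylate aminotransferase agxtb (2.32 ± 0.43), the sex hormone-binding globulin shbg (2.39 ± 0.41), which carries steroids in plasma, and the pentraxins crp2 (2.65 ± 0.45) and crp3 (2.66 ± 0.52) also rose. Genes of other kinds outside the lists rose too. Among them were the slow skeletal troponin gene tnni1d (0.69 ± 0.13), the myosin light chain kinase mylk4a (1.47 ± 0.29) and the heat shock gene hspb6 (1.06 ± 0.21). The snail family gene snai2 (0.93 ± 0.17) and pfkfb3 (1.16 ± 0.22) were others. The cytidine deaminase gene cdab had the smallest p, with 1.03, 6.91 and 4.96 CPM with EtP, 1.18, 0.998 and 0.954 CPM with MtP and a log2 fold change of 2.58 ± 0.34 (adjusted p = 0.0180, edgeR). In cdab the libraries numbered 1 did not differ in the same direction, since MtP library 1 lay above EtP library 1. Purine nucleoside phosphorylase pnp5a, by contrast, had 53.8, 75.1 and 119.5 CPM with EtP and 20.4, 32.3 and 25.2 CPM with MtP. The groups did not overlap, and pnp5a rose by 1.74 ± 0.29 in libraries 2 and 3 (adjusted p = 0.0228, edgeR). Over all libraries it did not pass (adjusted p = 0.920, edgeR). The genes of this paragraph other than cdab were chosen after their values were seen. The 2 lower genes, si:ch211-243j20.2 (-0.65 ± 0.13) and si:cabz01069013.3 (-1.54 ± 0.31), have no descriptive name, and both lay higher with EtP between the libraries numbered 1.

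Between the libraries numbered 1, which took no part in these calls, 50 of the 61 genes were higher with EtP (82.0%, against 53.3% of all genes), with a median log2 difference of 0.64. The same median was 2.27 between libraries numbered 2 and 1.93 between those numbered 3, from which the genes were called. Each number has 1 library of each compound, and genes that vary together are not replicates, so these counts are descriptions. Lower between libraries numbered 1 were 11 genes, among them prelid3b, a gene for a mitochondrial lipid transfer protein, at 76.9 CPM with EtP and 144 CPM with MtP, against 138 and 143 CPM with EtP and 91.5 and 94.9 CPM with MtP in libraries 2 and 3. It is the 1 gene among the 63 for which the gap in libraries 2 and 3 differed from that in libraries 1 in the test of that difference (adjusted p = 0.00479, edgeR interaction).

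**Figure D2:**
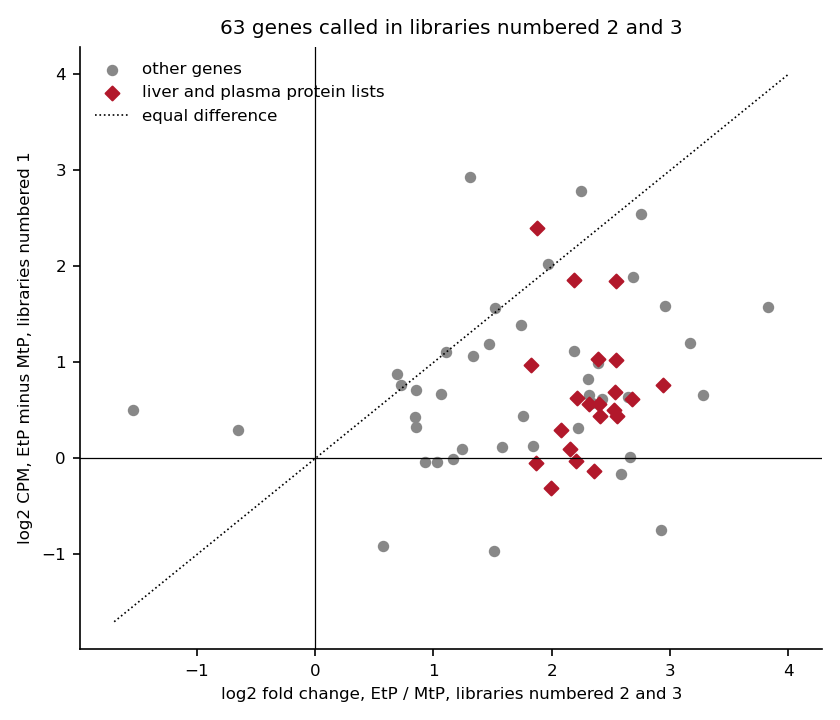
The 63 genes called between EtP and MtP at BMD5 in libraries numbered 2 and 3, by their log2 fold change there (x axis) and the difference in log2 CPM between the libraries numbered 1 (y axis). Red diamonds are members of the liver and plasma protein lists, the dotted line marks equal differences, and 50 of the 61 higher genes lie above 0 on the y axis, most of them below the dotted line.

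The heart muscle list gave 1 call among 15 tested members and the keratinocyte list 2 among 62 (all genes: 0.324% called higher). All 15 tested heart muscle genes lay above MtP over all libraries (median log2 fold change 0.89; medians by library number 0.47, 0.86 and 1.08), and 1 passed in libraries 2 and 3. That gene, the cardiac myosin light chain cmlc1, had 0.469, 5.04 and 6.64 CPM with EtP and 0.0618, 0.333 and 0.445 CPM with MtP. The groups did not overlap, though EtP library 1 (0.469 CPM) lay barely above MtP library 3 (0.445 CPM), both with few reads. In libraries 2 and 3 cmlc1 rose by 3.83 ± 0.67 (adjusted p = 0.0261, edgeR). Over all libraries it did not pass (adjusted p = 0.920, edgeR). It had 178 reads over the 6 libraries. The regulatory myosin light chain of the heart, myl7, had 0.469, 9.75 and 11.4 CPM with EtP and 0.371, 1.58 and 1.65 CPM with MtP without passing (2.68 ± 0.64 in libraries 2 and 3, adjusted p = 0.0847, edgeR). The natriuretic peptide nppa, released by the stretched atrium, was at 0 reads in library 1 of both groups, at 1.55 and 2.16 CPM in the other EtP libraries and at 0.499 and 0.2545 CPM in the other MtP libraries.

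Keratinocyte genes lay above MtP in 62 of 62 tested members (median 0.53), with medians of 1.29, 0.59 and 0.26 by library number. Their gap was thus largest between the libraries numbered 1, where that of the liver lists was smallest, a difference between lists that was not tested. Envoplakin, evpla, which links desmosomes to keratin, had 10.9, 18.5 and 24.2 CPM with EtP (mean 17.8 ± 6.66, SD, n = 3) and 1.30, 8.15 and 8.78 CPM with MtP (6.08 ± 4.15, n = 3). Every EtP library lay above every MtP library, and evpla rose by 1.31 ± 0.19 in libraries 2 and 3 (adjusted p = 0.0181, edgeR). The desmosomal cadherin dsg2.1 had 3.94, 9.88 and 26.5 CPM with EtP and 0.556, 2.58 and 2.67 CPM with MtP, also without overlap. Over all libraries evpla and dsg2.1 did not pass (adjusted p = 0.920 for both, edgeR). In libraries 2 and 3 dsg2.1 rose by 2.76 ± 0.54 (adjusted p = 0.0403, edgeR). Its partner dsc2l had 13.04, 18.5 and 46.4 CPM with EtP and 3.71, 11.1 and 9.67 CPM with MtP without passing (1.62 ± 0.38, adjusted p = 0.0772, edgeR). The abundant keratin krt4 had 1989, 4034 and 3987 CPM with EtP and 713.5, 2894 and 3388 CPM with MtP, and its gap over all libraries, 0.52 ± 0.57, was within its error. Collagen and matrix genes lay higher in 48 of 53 members with a median of 0.49 that was alike in the libraries of each number (0.41, 0.45 and 0.45), and 0 passed. In the deposited table gc spans 45677781 to 45725008 of chromosome 5, apoa1b 102925 to 108414 of chromosome 15, cmlc1 64167620 to 64168415 of chromosome 5, evpla 23057311 to 23082678 of chromosome 6 and dsg2.1 7327627 to 7350653 of chromosome 20; the build of these coordinates was not given in the sources used here.

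**Figure D3:**
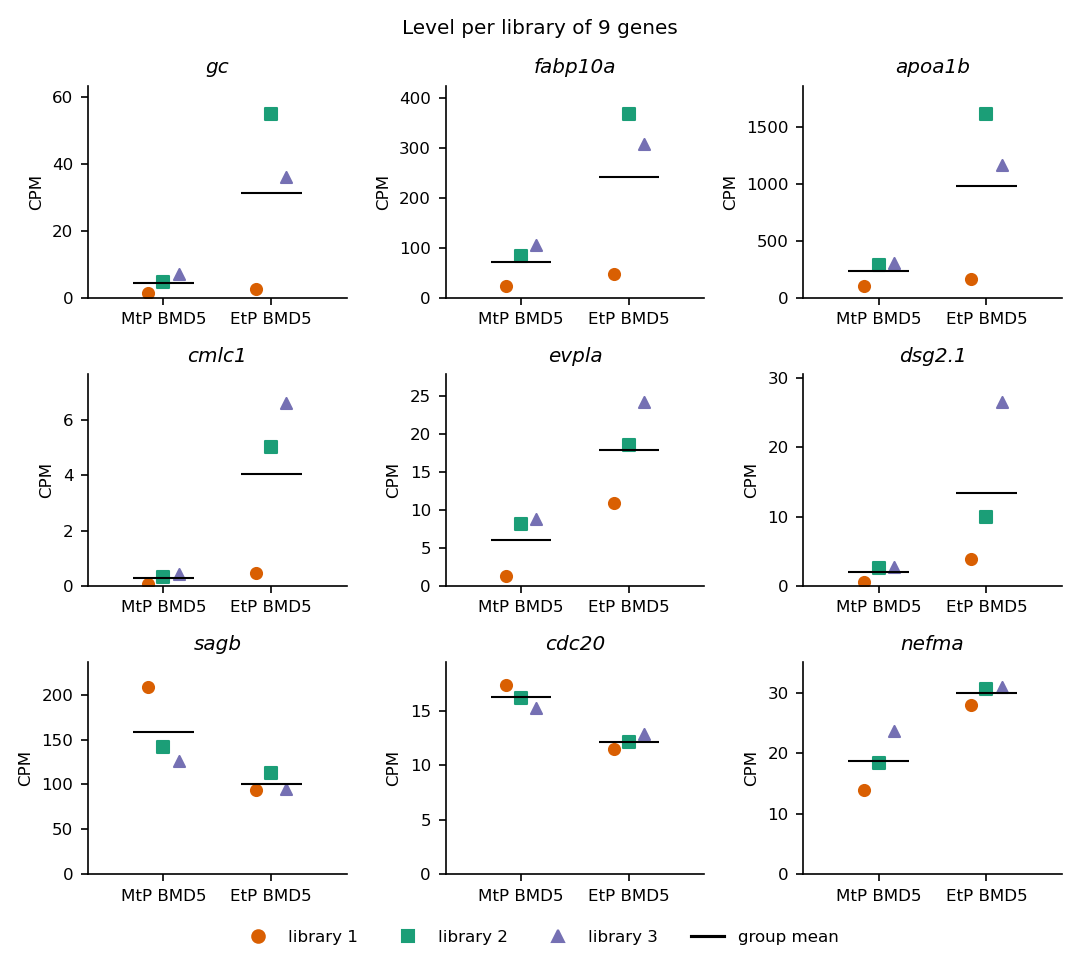
Level in CPM (y axis, from 0) of 9 genes in each library of MtP BMD5 and EtP BMD5, with the group mean as a line. In gc, fabp10a and apoa1b the EtP library numbered 1 (46.9 CPM for fabp10a) lies far below the others of its group (368 and 307 CPM). The groups do not overlap for cmlc1, evpla, dsg2.1, sagb, cdc20 and nefma. For cmlc1 this rests on 0.469 CPM in EtP library 1 against 0.445 CPM in MtP library 3.

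Genes of the gut leaned higher and none passed. The intestinal list lay above MtP in 32 of 32 genes (median 1.17; 0.53, 1.59 and 0.94 by library number), with 0 called in libraries 2 and 3. The peptide transporter slc15a1b had 2.065, 9.11 and 8.96 CPM with EtP and 1.36, 1.66 and 2.61 CPM with MtP (1.84 ± 0.80 over all libraries), and lactase, lct, had 0.469, 3.42 and 2.56 against 0.1855, 0.416 and 0.636 CPM (2.39 ± 1.04). In both genes EtP library 1 overlapped the MtP libraries. Pancreatic digestive enzymes lay above MtP in 24 of 25 genes on the fitted scale (median 1.27), but below it in 22 of 25 between the libraries numbered 1, where the median difference was -1.23 against 0.63 and 2.42 for numbers 2 and 3. Trypsin, prss1, had 7.41, 188 and 289 CPM with EtP and 26.8, 144 and 52.0 CPM with MtP, a log2 fold change of 1.12 ± 1.36. The islet list showed no such spread, with 5 of 16 higher, 11 lower and a median of -0.11 (-0.02, -0.17 and 0.10 by library number). Among the 5 were 2 hormone genes. Insulin, ins, had 0.563, 1.23 and 1.36 CPM with EtP and 0.556, 0.499 and 0.509 CPM with MtP (1.01 ± 0.86; 65 reads over the 6 libraries). Glucagon, gcga, stood at 0.87 ± 0.70. The list also holds more abundant genes such as chga, at 36.1, 33.8 and 28.4 CPM with EtP and 29.4, 27.9 and 31.1 CPM with MtP. Which cells such reads come from was not tested, so the list median need not describe the endocrine pancreas.

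Nervous system genes differed little and 0 passed. The neuronal and synaptic list lay above MtP in 15 of 59 tested genes (median -0.12), the transmitter list in 21 of 63 (-0.07), the axon guidance list in 25 of 67 (-0.05) and the glia and myelin list in 20 of 37 (0.00, from 0.06 to 0.17 by library number). The neuronal RNA-binding protein elavl3 had 105, 77.6 and 81.0 CPM with EtP (88.0 ± 15.1, SD, n = 3) and 94.2, 89.3 and 70.2 CPM with MtP (84.5 ± 12.7), with a log2 fold change of 0.06 and a 95% interval from -0.38 to 0.50. Acetylcholinesterase, ache, which ends cholinergic signals, had 175, 184 and 199.7 CPM with EtP and 140.5, 173 and 174 CPM with MtP, and an interval from -0.07 to 0.46. For the myelin gene mbpa the levels were 53.7, 76.1 and 81.0 CPM with EtP and 34.6, 50.4 and 62.3 CPM with MtP, with an interval from -0.13 to 1.17, and for the glial filament gfap 122, 154 and 148 CPM and 76.2, 112 and 128 CPM, with an interval from -0.22 to 1.06. These intervals do not show that the compounds act alike, since each also holds differences up to its bounds. The bounds are not the limit of what the adjusted test could detect. For gc the interval over all libraries, 0.27 to 5.43, left out 0 and the gene did not pass (adjusted p = 0.920, edgeR).

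A few neural genes separated the groups without passing the adjusted test. The neurofilament gene nefma had 28.1, 30.7 and 31.0 CPM with EtP (29.9 ± 1.64, SD, n = 3) and 13.85, 18.4 and 23.8 CPM with MtP (18.7 ± 4.98), with a log2 fold change of 0.68 ± 0.26 (adjusted p = 0.920, edgeR). The ephrin gene efna1b, a guidance ligand also made outside the nervous system, had 100.7, 96.7 and 84.2 CPM with EtP and 175, 149.6 and 136 CPM with MtP, a log2 fold change of -0.71 ± 0.22. Myelin protein zero, mpz, had 25.8, 21.6 and 27.7 CPM with EtP and 15.5, 16.3 and 18.3 CPM with MtP (0.58 ± 0.24), and the choline transporter slc5a7a had 3.19, 3.49 and 3.04 against 2.29, 2.50 and 1.91 CPM (0.54 ± 0.22). The EtP libraries lay wholly above or below the MtP libraries in all of these, which are among the genes of smallest p in their lists. They lay wholly above in 3 of 59 neuronal, 3 of 63 transmitter, 0 of 67 axon guidance and 2 of 37 glial genes. They lay wholly below in 1 gene of each of these lists. Over all genes the shares were 3.71% (above) and 3.96% (below).

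Over all libraries most retinal genes lay below MtP, most clearly between the libraries numbered 1. Between those numbered 3, 47 of the 79 listed genes lay above it. Of 79 tested phototransduction and visual cycle genes, 71 were lower with EtP (median log2 fold change -0.30; -0.60, -0.27 and 0.09 by library number), 7 had an unadjusted p under 0.05 (all genes: 3.82%) and 0 passed. The rod and pineal arrestin sagb, which quenches active opsin, had 93.7, 113 and 94.9 CPM with EtP (100.4 ± 10.7, SD, n = 3) and 209, 141 and 126 CPM with MtP (159 ± 44.1), a log2 fold change of -0.66 ± 0.24. The cone phosphodiesterase pde6c had 389.7, 522 and 505 CPM with EtP and 939.8, 599.9 and 569.9 CPM with MtP (-0.57 ± 0.23). In both genes all EtP libraries lay below all MtP libraries, with MtP library 1 far above the rest, and the same order was seen in 10 of the 79 members (all genes: 3.96%). In the controls sagb stood at 98.8, 94.5 and 99.8 CPM. The photoreceptor marker, the cone opsin opn1mw1, had 1608, 1368 and 1753 CPM with EtP and 1984, 1589 and 1359 CPM with MtP (-0.06 ± 0.21). Lens crystallins were lower in 37 of 58 members with a median of -0.15 (-0.31, 0.28 and -0.25 by library number).

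Genes of cell division leaned lower with EtP, by small amounts. Of 77 replication and mitosis genes 73 were below MtP (median -0.19; -0.22, 0.07 and -0.36 by library number), 11 had an unadjusted p under 0.05 (all genes: 3.82%) and 0 passed. The mitotic activator cdc20 had 11.45, 12.1 and 12.9 CPM with EtP (12.1 ± 0.717, SD, n = 3) and 17.4, 16.1 and 15.2 CPM with MtP (16.2 ± 1.09), a log2 fold change of -0.42 ± 0.15 (adjusted p = 0.920, edgeR). The kinetochore motor cenpe stood at -0.44 ± 0.16 and the microtubule regulator stmn1a at -0.34 ± 0.13. All 3 EtP libraries lay below all 3 MtP libraries in 8 of the 77, these genes among them (all genes: 3.96%). Ribosomal protein genes were lower in 73 of 88 members with a median of -0.06, higher in 85 of 88 between the libraries numbered 1 (median 0.21) and with medians of -0.12 and -0.17 for numbers 2 and 3. Skeletal muscle genes, higher in 55 of 59 members (median 0.32), had medians of 0.81, 0.44 and 0.00 by library number, and mitochondrial respiratory chain genes a median of -0.02.

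Genes that handle foreign compounds leaned higher with EtP, in 78 of 96 tested members (median 0.48, with 0.32, 0.66 and 0.42 by library number). In libraries 2 and 3, 2 of the 96 passed (all genes: 0.324% called higher). The carboxylesterase ces3, of a family that splits esters, had 3.19, 40.8 and 21.6 CPM with EtP and 1.73, 4.66 and 7.70 CPM with MtP and rose by 2.30 ± 0.46 (adjusted p = 0.0403, edgeR). The sulfotransferase sult3st2, of a family that conjugates phenols and alcohols with sulfate, had 1.97, 7.23 and 7.44 CPM with EtP and 0.866, 2.08 and 3.56 CPM with MtP and rose by 1.34 ± 0.27 (adjusted p = 0.0475, edgeR). EtP library 1 overlapped the MtP libraries in both genes, as it did in the liver genes, and 21 of the 64 genes of the liver lists rose in the same libraries. Their part in this result was not tested. The dioxin receptor target cyp1a had 2.63, 8.46 and 8.80 CPM with EtP and 2.41, 3.91 and 6.30 CPM with MtP (0.66 ± 0.60), and cyp1b1 had -0.13 ± 0.50. Vitellogenin vtg1 and the brain aromatase cyp19a1b, targets of estrogen, had 2 and 19 reads over the 6 libraries and were not tested, and of 40 genes listed for estrogen and thyroid response 16 had enough reads, 11 of them higher (median 0.58) and 0 called.

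Among the remaining lists single genes passed. Genes of inflammation and immune cells were higher in 36 of 42 members (median 0.36), and lect2l, a relative of a chemotactic protein that the mammalian liver makes, rose by 2.25 ± 0.44 in libraries 2 and 3 (adjusted p = 0.0403, edgeR), while the cytokine il1b stood at 0.43 ± 0.52. The iron hormone hepcidin, hamp, made by the liver, had 0.563, 4.78 and 2.72 CPM with EtP and 0.433, 0.499 and 0.509 CPM with MtP. The groups were only narrowly apart, at 0.563 against 0.509 CPM, and hamp did not pass (2.87 ± 0.59, adjusted p = 0.0544, edgeR). In lipid handling, cpt1b, a carnitine palmitoyltransferase annotated as the muscle form, rose by 0.84 ± 0.16 (adjusted p = 0.0403, edgeR). The rate-limiting enzyme of bile acid synthesis, cyp7a1, had 0.845, 9.17 and 7.60 CPM with EtP and 0.433, 0.915 and 2.04 CPM with MtP without passing (2.44 ± 0.60, adjusted p = 0.0956, edgeR). Stress genes were higher in 38 of 61 members (median 0.08) with 10 at an unadjusted p under 0.05 (all genes: 3.82%), among them the autophagy receptor sqstm1 at 58.75, 42.1 and 46.5 CPM with EtP and 25.8, 34.8 and 32.8 CPM with MtP (0.66 ± 0.22). Cholesterol synthesis genes were higher in 11 of 29 members, circadian clock genes in 17 of 32, pigment cell genes in 14 of 25 and blood genes in 17 of 21, with 0 passing in any of these. Each of these lists had a negative median between the libraries numbered 1. By library number the medians were -0.27, 0.06 and 0.09 for cholesterol synthesis and -0.29, 0.15 and 0.48 for the clock. For pigment cells they were -0.46, 0.03 and 0.45, and for blood -0.35, 0.76 and 0.43.

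Over all libraries the named genes with the smallest p did not belong to a single tissue. Among those higher with EtP was tasor2, a relative of a silencing complex subunit, with 41.7, 33.5 and 47.0 CPM against 26.8, 26.3 and 20.4 CPM (0.73 ± 0.17). Another was the oxidative stress regulator nfe2l2b, with 2.25, 2.45 and 2.24 CPM against 0.742, 0.998 and 0.891 CPM (1.40 ± 0.41). Among those lower were the polycomb gene scmh1, with 15.2, 14.7 and 13.5 CPM against 24.4, 17.7 and 20.9 CPM (-0.54 ± 0.13), and the melatonin receptor mtnr1ab, with 2.16, 2.20 and 1.76 CPM against 6.06, 3.16 and 3.31 CPM (-1.04 ± 0.26). The groups did not overlap in any of these genes, which is in part fixed by picking those of smallest p. Such separation held for 3.71% (above) and 3.96% (below) of all genes. In none of the named genes did the adjusted p pass (lowest 0.920, edgeR). The others named by the same rule were kcnj1a.6, rbms1a, asb15b, slc25a15b, pde4ca and npvf, with log2 fold changes of 0.49 to 2.87, and gc2, wasf3b, clec3bb, msnb, stn1 and fdx1b, with -2.38 to -0.46.

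The 61 genes were also set beside the controls. They were called on the same EtP and MtP libraries, so a high value with EtP and a low one with MtP are in part fixed by that choice, and the values are given as a description. In libraries 2 and 3 their median log2 fold change against Control was 2.13 with EtP and -0.15 with MtP, and both comparisons use the same 2 control libraries. With EtP 61 of the 61 lay above Control (all genes: 9027 of 18443), and with MtP 36 of them lay below it (all genes: 9488 of 18443). Against Control 37 of the 61 were called with EtP (all genes: 0.361%) and 0 with MtP (all genes: 0%) at an adjusted p under 0.05 (edgeR). For apoa1b the values were 2.38 ± 0.41 with EtP and 0.16 ± 0.39 with MtP, and for c9 they were 2.19 ± 0.34 and -0.20 ± 0.36. In other genes Control lay between the compounds: dsg2.1 had 1.16 ± 0.48 with EtP and -1.60 ± 0.56 with MtP, pnp5a had 0.81 ± 0.28 and -0.93 ± 0.29, and cmlc1 had 2.56 ± 0.59 and -1.27 ± 0.83. These 3 did not pass against Control with EtP (adjusted p = 0.346, 0.256 and 0.0896, edgeR). With MtP they did not pass either (adjusted p = 0.9998 for each, edgeR). They were chosen after their values were seen.

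The same compounds at the lower labels give the values beside these, from other libraries. At BMD5/10 the 61 genes were higher with EtP in 61 of 61 cases between libraries numbered 2 (median 1.83) and between those numbered 3 (2.18), and in 10 of 61 between those numbered 1 (-0.60). The shares over all genes were 50.5, 50.0 and 48.1% in the same order. At BMD5/50 the 61 were higher in 61 of 61 between libraries numbered 2 (0.99) and numbered 3 (1.94), and in 20 of 61 between those numbered 1 (-0.20). The shares over all genes were 52.5, 51.2 and 50.2%. In libraries 2 and 3, 53 of the 61 were called higher at BMD5/10 (all genes: 2.24%) and 0 at BMD5/50, where 0 of all genes passed (0%; 3809 at an unadjusted p under 0.05, smallest adjusted p 0.0678). For gc the log2 fold changes were 2.28 ± 0.38 at BMD5/10 (adjusted p = 0.0110, edgeR) and 1.91 ± 0.38 at BMD5/50 (adjusted p = 0.0678, edgeR). A test over all libraries of whether the gap at BMD5 differed from that at each lower label called 0 genes (edgeR). At an unadjusted p under 0.05 there were 144 of 18543 genes against BMD5/10 and 269 against BMD5/50. The same model of all libraries called 0 genes between the compounds at BMD5 itself. The test therefore cannot show that the gap was alike at the 3 labels.

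**Figure D4:**
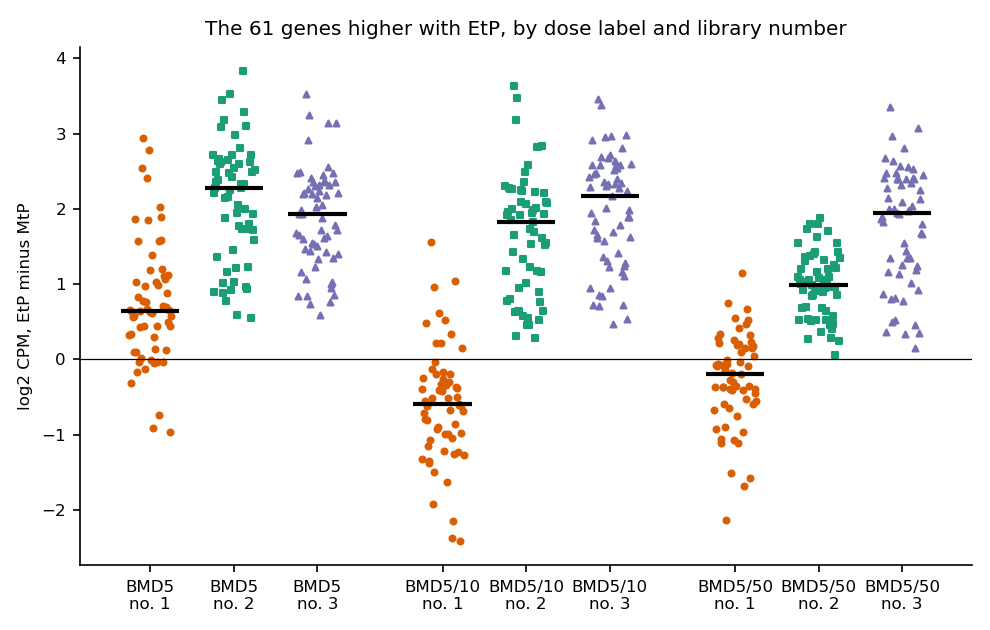
Difference in log2 CPM between EtP and MtP (y axis) for each of the 61 genes that rose in libraries 2 and 3 at BMD5, by dose label and library number, with medians as lines. The libraries numbered 2 and 3 lie above 0 at each label (medians 0.99 to 2.27), and those numbered 1 have medians of 0.64, -0.60 and -0.20.

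A few genes had a gap between the compounds that was unlike in the libraries numbered 1 and the others. In 20 of 18543 genes (0.108%) the gap in libraries 2 and 3 differed from that in libraries 1 at an adjusted p under 0.05 (edgeR interaction, a test chosen after the data were seen), each group having 1 library numbered 1 that is assumed to vary like the others. The count was 101 with DESeq2, 118 with no filter on low counts, 3, 2 and 7 with EtP library 2, EtP library 3 or MtP library 3 left out, and 35 with MtP library 2 left out. In all 20 genes MtP library 1 was the highest or the lowest library of its group, and in all but mylpfa EtP library 1 was so too. The genes were chosen by a test that sets library 1 against the others, so this order is in part fixed. For prelid3b, EtP library 1 had 76.9 CPM against 138 and 143 CPM in EtP libraries 2 and 3. With 1 library of each number in a group, the library number and single libraries cannot be told apart at BMD5. Among the 20 genes were 4 phototransduction genes (arr3a, arr3b, rcvrn3 and rbp4l) and 4 skeletal muscle genes (mylpfa, myhz2, ckmt2a and pvalb1). The cone arrestin arr3a had 355, 597 and 636 CPM with EtP and 1517, 559.5 and 448 CPM with MtP, so that MtP library 1 stood above every other library. The retinoic acid-degrading enzyme cyp26a1 had 19.3, 12.2 and 14.6 CPM with EtP and 65.2, 9.23 and 9.03 CPM with MtP, again with MtP library 1 highest. The fast muscle myosin myhz2 had 3266, 5442 and 5181 CPM with EtP and 1063, 4181 and 5356 CPM with MtP, with MtP library 1 lowest.

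**Figure D5:**
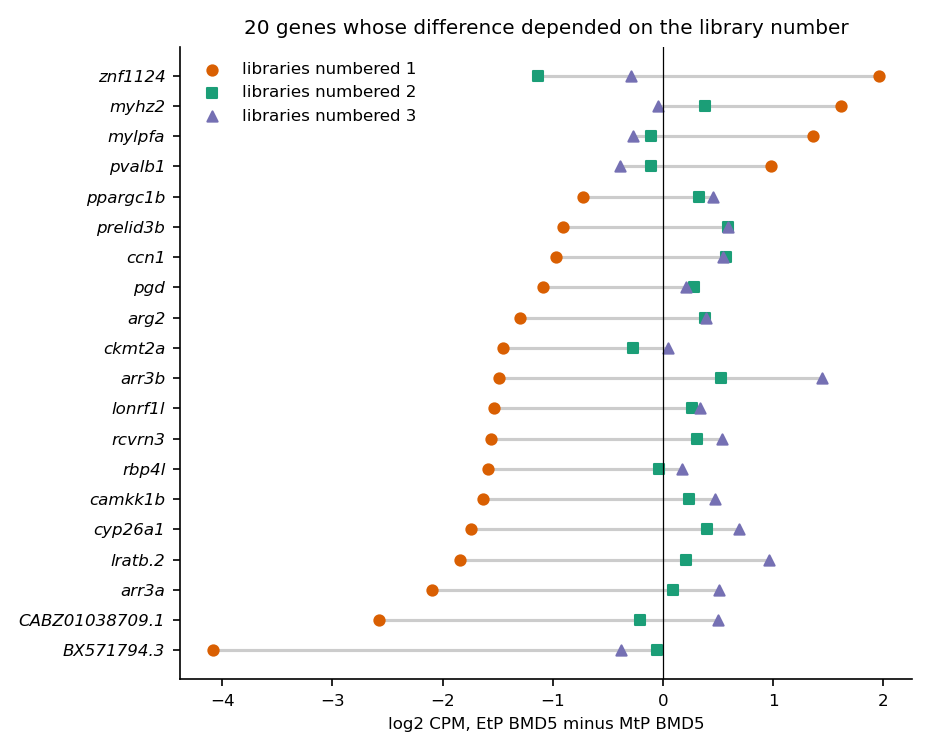
Difference in log2 CPM between EtP and MtP at BMD5 (x axis) for the 20 genes whose gap in libraries 1 differed from that in libraries 2 and 3 in the interaction test, with 1 point per number. In 16 genes the libraries numbered 1 lie far to the left of the others and in 4 (znf1124, myhz2, mylpfa, pvalb1) to the right; the point of BX571794.3 for libraries 1 rests on an EtP library with 0 reads.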

How the data were processed

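Per the file headers, the values used are read counts that the authors deposited for each transcript in each library, and these were summed per gene symbol. The sources used here name no aligner, counter or genome build, and 60 columns of other units were not used. The table has 59876 transcripts and 31846 symbols, 533 of them joining several gene IDs. No 2 libraries were identical (0 pairs). The test was edgeR's quasi-likelihood F test (edgeR 4.0.16, limma 3.58.1, R 4.3.3) after TMM scaling and filterByExpr with its minimum count at 10, in a model of 10 group means over all 30 libraries and Benjamini-Hochberg adjustment at 0.05, and in the same way over libraries numbered 2 and 3. Standard errors come from the F statistic. Differences by library number are of log2 CPM with a prior count of 2. DESeq2 1.42.0 was an alternative. An exact test of 3 against 3 libraries cannot go below 0.1 and was not used. The script was tested on simulated data.

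Named genes are up to 15 called genes a direction, the 3 genes with the smallest p of each of 27 lists, the 8 of smallest p in each direction with a proper name, and 16 sentinel genes, of which ces2 was not found in the table under that symbol. Members and lists were chosen with earlier results of these data known. The tests of the library number and between labels were chosen after the data were seen.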

Additional observations from a re-analysis of the deposited data

Results flagged for a closer look

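In 20 genes the difference between EtP and MtP at BMD5 in libraries 2 and 3 was unlike that in libraries 1 by a test of the interaction itself (edgeR, adjusted p under 0.05 over 18543 genes). Each group has 1 library numbered 1, the test was chosen after those libraries were seen to stand apart, and the count ran from 2 to 35 with 1 library left out and was 101 with DESeq2. The values are the log2 difference in libraries 2 and 3 minus that in libraries 1. Genes of photoreceptors and retinoid handling had arr3a at 2.39, arr3b at 2.45, rcvrn3 at 1.98, rbp4l at 1.65, lratb.2 at 2.44 and cyp26a1 at 2.305. Muscle genes had mylpfa at -1.55, myhz2 at -1.46, pvalb1 at -1.23 and ckmt2a at 1.33. Genes of metabolism and signalling had pgd at 1.34, arg2 at 1.69, ppargc1b at 1.12, camkk1b at 1.99 and ccn1 at 1.54. The rest were lonrf1l at 1.84, prelid3b at 1.5, znf1124 at -2.78, CABZ01038709.1 at 2.785 and BX571794.3 at 7.82, a fitted value that is no bound, since EtP library 1 had 0 reads of it. In MtP, library 1 was the highest of the 3 for the 16 genes with positive values and the lowest for the 4 with negative values. In EtP, library 1 was also the highest or the lowest of its group for all but mylpfa. Choosing the genes by this test in part fixes that order.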

How the results depend on the processing

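With all libraries, RLE scaling, no filter on low counts, DESeq2, the 2 groups alone, counts per gene ID, a replicate block and leaving out each library in turn gave 0 called genes, as the main setting did, while libraries 2 and 3 alone gave 63. In those libraries the count was 63 with RLE scaling and with counts per gene ID, 333 with no filter, 250 with DESeq2, 216 with the 2 groups alone, and 0 to 3 with 1 library left out. The replicate block gave 132 calls there, including all 63, and over all libraries 0 (2670 at an unadjusted p under 0.05). Over all libraries it lowered the smallest adjusted p from 0.920 to 0.0762 (edgeR). Same-numbered libraries deviated together with correlations of 0.510, 0.0666 and 0.376, and EtP library 2 correlated best with MtP library 3 (0.434). The main model had no term for the library number. The interaction with the library number was called in 20 genes with TMM or RLE scaling, 118 with no filter, 101 with DESeq2 and 2 to 35 with 1 library left out. The cause of these changes was not tested. Of the named genes, 7 values changed sign: her4.1 to -0.031 and elavl3 to -0.025 in libraries 2 and 3, cyp1b1 (-0.54 to 0.22) without MtP library 2, EtP library 2 or EtP library 3, and elavl3 (-0.10 to 0.14) without MtP library 3 or EtP library 1, the ranges being over each library left out. RLE scaling turned 0 of 54 list medians. With 2 or 3 libraries a side, 63.7% (all libraries) and 65.3% (libraries 2 and 3) of genes had intervals within 1 log2 unit of 0, which limits what could be detected.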
